A study of Mus musculus with 16 samples.

Results

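Pericytes are the mural cells that sit within the basement membrane of brain capillaries. In the deposited single-cell count tables they were sought as barcodes with at least 3 UMIs (unique molecular identifiers, each counting 1 captured transcript) summed over Vtn, Rgs5, Kcnj8, Abcc9, Higd1b and Ndufa4l2. Such a barcode also had 200 to 7000 detected genes, at most 1 UMI summed over the smooth muscle genes Acta2, Myh11 and Tagln, and at most 1 summed over 9 genes of other cells (P2ry12, Cx3cr1, Aqp4, Gja1, Mag, Mog, Syt1, Cldn5 and Col1a2). The rule found 507 barcodes among the 24578 with 200 to 7000 detected genes, which are called kept barcodes here, out of 42000 in 14 libraries. These counts were used to choose the members, so levels of the 6 rule genes, and differences between the members and the other barcodes, are given as descriptions without a test.

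The libraries were made by Drop-seq, a droplet method with barcoded beads, from neocortex of 17-month-old mice of both sexes, with 1 library per mouse. THY-Tau22 mice carry human 4-repeat tau with mutations linked to frontotemporal dementia. The transgene is driven by the Thy1.2 promoter, which is active in neurons. THY-Tau22 mice came from heterozygous males bred with C57Bl6/J females, and the wild-type (WT) mice were their littermates. The comparison asks whether cortical pericytes differ with the transgene in males, in females, or differently between the sexes. There were 3 male and 3 female WT mice, and 3 male and 5 female THY-Tau22 mice. The titles of 2 libraries, from the first WT male and the first THY-Tau22 female, repeat an animal number under different sexes, for a reason not stated. A library stood in the deposit under both genotypes, as the third WT and the fourth THY-Tau22 male, with 2952 of 3000 barcodes and 30 members in common, so both tables were left out. Any pair of the other libraries shared 3 to 12 barcodes, and 0 members.

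Pericytes share the capillary wall with endothelial cells, whose platelet-derived growth factor recruits them through the receptor Pdgfrb and whose Notch ligands act on their Notch3. In brain they help to form the blood-brain barrier, deposit and hold matrix, and can narrow or relax the capillary. Several of the rule genes serve these tasks. Vtn encodes vitronectin, a matrix protein bound by endothelial integrins. Rgs5 encodes a regulator that shortens G protein signalling. Kcnj8 and Abcc9 encode the pore (Kir6.1) and the sulfonylurea receptor (SUR2) of the ATP-sensitive potassium channel of mural cells. Higd1b and Ndufa4l2 encode small mitochondrial proteins of families linked to low oxygen.

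In the mm10 gene models, Kcnj8 and Abcc9 lie side by side on the minus strand of chromosome 6, at chr6:142564837-142571614 and chr6:142587862-142702315, with 16.2 kb between them. Rgs5 lies at chr1:169655501-169695813 on the plus strand, 45.7 kb from its relative Rgs4, another gene of mural cells. Vtn lies at chr11:78499091-78502324, Higd1b at chr11:102835849-102838040 and Ndufa4l2 at chr10:127514967-127517154, all on the plus strand. RefSeq promoter sequences of 300 bases on GRCm38.p6 (250 before and 50 after the start) were matched for 4 of the 6 genes and are shown because these genes define the members. Capitals mark TGGGAA on either strand (TTCCCA on the other), the core bound by RBPJ, the DNA partner of Notch. They span chr11:78498870-78499169 for Vtn, chr1:169655251-169655550 for Rgs5, chr6:142571565-142571864 for Kcnj8 and chr6:142702225-142702524 for Abcc9, each printed 5′ to 3′ on the gene's strand.
Vtn: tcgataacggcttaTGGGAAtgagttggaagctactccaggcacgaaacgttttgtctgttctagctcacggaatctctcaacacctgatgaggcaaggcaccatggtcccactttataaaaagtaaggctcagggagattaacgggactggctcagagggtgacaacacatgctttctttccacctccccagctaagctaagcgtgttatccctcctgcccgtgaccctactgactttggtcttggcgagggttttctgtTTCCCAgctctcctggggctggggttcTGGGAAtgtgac
Rgs5: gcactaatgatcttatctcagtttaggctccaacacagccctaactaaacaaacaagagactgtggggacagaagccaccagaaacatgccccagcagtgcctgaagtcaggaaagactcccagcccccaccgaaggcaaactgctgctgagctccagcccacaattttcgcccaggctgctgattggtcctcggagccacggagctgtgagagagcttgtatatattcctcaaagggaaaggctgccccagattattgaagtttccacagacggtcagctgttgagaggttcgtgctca
Kcnj8: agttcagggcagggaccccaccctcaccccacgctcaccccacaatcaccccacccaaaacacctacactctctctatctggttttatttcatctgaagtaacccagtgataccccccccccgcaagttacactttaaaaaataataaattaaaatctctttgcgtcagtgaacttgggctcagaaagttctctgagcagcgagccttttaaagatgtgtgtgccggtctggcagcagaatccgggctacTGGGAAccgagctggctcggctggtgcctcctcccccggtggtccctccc
Abcc9: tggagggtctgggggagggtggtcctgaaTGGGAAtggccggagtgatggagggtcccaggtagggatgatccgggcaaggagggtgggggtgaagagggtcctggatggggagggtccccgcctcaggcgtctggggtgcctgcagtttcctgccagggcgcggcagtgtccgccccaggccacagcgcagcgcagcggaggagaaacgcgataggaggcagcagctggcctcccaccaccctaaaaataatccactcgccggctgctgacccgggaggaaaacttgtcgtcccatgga
The core stood 3 times in the Vtn window, 1 time each in those of Kcnj8 and Abcc9 and 0 times in that of Rgs5, and 25.6% of all 32851 RefSeq mouse promoters of that length held it. The hypoxia response core ACGTG stood in 0 of these 4 windows and in 19.6% of all promoters. These matches are letters in a window and say nothing on binding.

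The members carried 3 to 39 UMIs of the rule genes, with a median of 5. Rgs5 supplied most of them, at 2458 UMIs, and 98.8% of the members held at least 1. In the microglia set, 5018 barcodes with at least 3 UMIs of P2ry12 and Cx3cr1 that should lack the gene, 3.13% held an Rgs5 UMI at nearly the same depth (the median was 592 UMIs per barcode in the members, 4 more than in the microglia set). Vtn was found in 225 members (44.4%, against 0.976% of the microglia set), Higd1b in 106 (20.9% against 0.14%), Abcc9 in 104 (20.5% against 0.36%), Kcnj8 in 80 (15.8% against 0.1%) and Ndufa4l2 in 36 (7.10% against 0.16%). Both subunits of the channel, Kcnj8 and Abcc9, were seen together in 27 barcodes and at least 1 of them in 157. At this depth most members showed few of the genes. A total of 192 members held UMIs of exactly 1 rule gene (189 of them Rgs5), 164 of 2, 93 of 3, 40 of 4, 15 of 5 and 3 of 6. Just inside the threshold lay 114 members with 3 rule UMIs, and just outside it 250 barcodes with 2 that met the other limits. A further 460 barcodes missed the rule through the 9 genes of other cells, 354 of them with at least 2 UMIs of the endothelial gene Cldn5.

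The label was checked against other pericyte genes and against genes of neighbouring cells, in an endothelial set of 2772 barcodes and a smooth muscle set of 76. Endothelial barcodes were limited to at most 1 UMI summed over the rule and smooth muscle genes. Low pericyte RNA in that set is therefore partly fixed by its choice. The smooth muscle set had no limit on rule genes, but was chosen for UMIs of Acta2, Myh11 and Tagln, which were capped in the members. In CPM, UMI counts scaled to a common total of 1000000 and summed over each set, the PDGF receptor Pdgfrb reached 332 in the members, 9.93 in the endothelial set and 37.8 in the smooth muscle set. Atp13a5, a transporter gene of brain pericytes, reached 174 CPM against 6.62 and 12.6, and P2ry14, a nucleotide sugar receptor, 239 against 3.31 and 88.2. Aspn and Cald1, of the same list, were lower than in smooth muscle, at 197 against 378 CPM and 3063 against 8615 CPM. All 25 genes of the list of other pericyte genes had at least 1 UMI, but so had all 9 microglial and all 8 oligodendrocyte genes listed. Detection alone therefore does not check the label. Of the classical markers, Cspg4 (NG2) lay at 205 CPM and the less specific Anpep (CD13) at 25.3 CPM in the members, given without a comparison. Among the genes with the highest ratio to all kept barcodes, after the rule genes, were Ecm2 (591 CPM) and Casq2 (222 CPM). These lay at 109 and 3.86 CPM in the endothelial set and at 214 and 164 CPM in the smooth muscle set.

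The endothelial markers went against a plain reading of the label. Cldn5 was capped at 1 UMI, yet 332 of the 507 members (65.5%) held at least 3 UMIs of 5 other endothelial genes (Flt1, Ly6c1, Itm2a, Pltp and Slco1a4), and 203 held more endothelial than rule UMIs. Flt1, a VEGF receptor, reached 4157 CPM in the members and 6077 CPM in the endothelial set. The endothelial adhesion gene Pecam1 reached 402 against 638 CPM and the glucose transporter Slc2a1 408 against 644 CPM. Of the 142 members with 0 to 1 endothelial UMIs, 108 had 0, 124 held at least 2 rule genes and 17 held Rgs5 alone. Of the 332 with at least 3, 172 held at least 2 rule genes and 159 held Rgs5 alone. The barcodes are therefore called pericyte-marker barcodes, and those with 0 to 1 and with at least 3 endothelial UMIs are called endothelial-poor and endothelial-rich. This division was chosen after the values were seen, and whether rich barcodes hold 2 cells or free RNA was not tested.

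**Figure D1:**
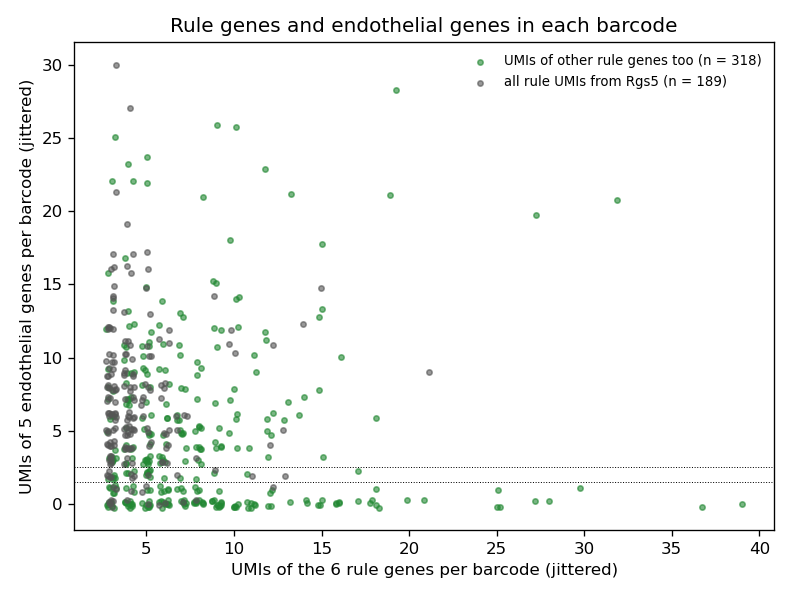
Each point is 1 of the 507 members, with UMIs summed over the 6 rule genes on the x axis and over Flt1, Ly6c1, Itm2a, Pltp and Slco1a4 on the y axis. The members range from 3 to 39 rule UMIs, and 203 of them hold more endothelial than rule UMIs.

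The endothelial-poor members carried the pericyte genes at a higher level. Vtn lay at 4651 CPM in them and 744 CPM in the endothelial-rich ones, Kcnj8 at 1089 against 166 CPM, Higd1b at 1001 against 206 CPM and Abcc9 at 868 against 269 CPM. Rgs5 differed less, at 10803 against 5855 CPM. Genes outside the rule went the same way: Pdgfrb lay at 883 against 180 CPM, P2ry14 at 648 against 140 CPM and Notch3 at 191 against 62.6 CPM. Pecam1 was at 0 in the endothelial-poor members and at 508 CPM in the rich ones. The rich barcodes were also deeper, with a median of 702 UMIs against 427.5.

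Contractile genes lay lower in the members than in smooth muscle. Myl9, a regulatory myosin light chain, lay at 442 CPM in the members and 1738 CPM in the smooth muscle set, Tpm2, a tropomyosin, at 110 against 2065 CPM, and Lmod1, a leiomodin of smooth muscle, at 84.4 against 1272 CPM. The caldesmon gene Cald1 was high in both, at 3063 and 8615 CPM. The smooth muscle genes Cnn1 and Actg2 had 0 UMIs in the members. The signalling genes of vessel tone named next were closer, and somewhat higher in the members. The whole smooth muscle set held only 79400 UMIs, so its low values rest on few counts. Gucy1b3, a subunit of the nitric oxide receptor, lay at 464 against 353 CPM, Rgs4 at 433 against 365 CPM, the sphingosine phosphate receptor S1pr3 at 242 against 176 CPM, and the endothelin receptor Ednra at 70.3 against 37.8 CPM. Basement membrane collagen was shared with the endothelial set, with Col4a1 at 262 against 225 CPM and Col4a2 at 169 against 128 CPM.

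**Figure D2:**
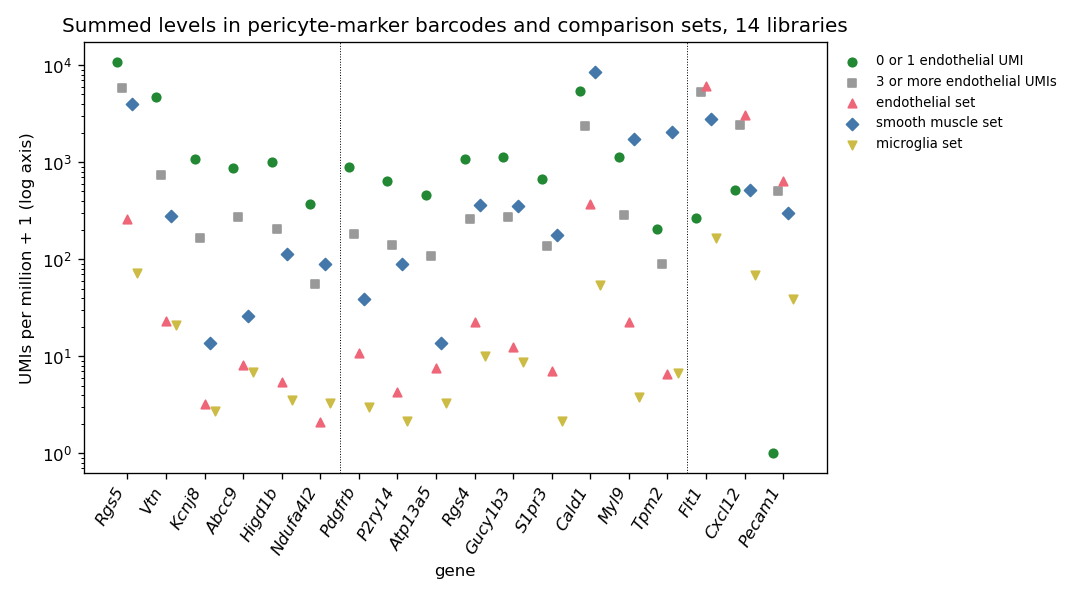
Levels as CPM + 1 on a log axis are plotted for rule genes (left), other genes of mural cells (middle) and endothelial genes (right) in the endothelial-poor and endothelial-rich members and the 3 comparison sets. Vtn lies at 4651 CPM in the endothelial-poor members and 744 CPM in the endothelial-rich ones, and Flt1 at 265 and 5251 CPM.

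RNA of more distant cells was present at levels that differed between genes and mice. The 8 oligodendrocyte genes listed summed to a mean of 3023 CPM over the 14 mice (454 to 12081 CPM). The means were 1241 CPM for the 8 astrocyte genes, 973 CPM for the 8 fibroblast genes and 440 CPM for the 9 microglial genes. Single genes of these lists could still be low. The microglial protease gene Ctss lay at 92.8 CPM in the members against 8234 CPM in the microglia set, the astrocyte gene Gfap and the fibroblast gene Col1a1 had 0 UMIs, and haemoglobin Hbb-bs had 4. Ttr, a choroid plexus gene, had 939 UMIs, of which 927 sat in 1 barcode of WT male replicate 1 with 6631 UMIs in all.

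The share of kept barcodes that met the rule did not differ between genotypes beyond the spread between mice. In males it was 2.14%, 1.44% and 2.45% in the WT mice and 1.29%, 2.48% and 2.73% in the THY-Tau22 mice, so that the groups overlapped. The means were 2.01% ± 0.514 and 2.17% ± 0.769 (SD, n = 3 each, exact two-sided permutation p = 0.70, where 3 against 3 mice cannot go below 0.10). In females the share was 2.29%, 1.96% and 1.90% in the WT mice, and the THY-Tau22 mice ran from 0.557% (8 members, exact 95% binomial interval 0.241 to 1.09%) through 1.87%, 2.29% and 2.61% to 2.76%. These means were 2.05% ± 0.211 (n = 3) and 2.02% ± 0.886 (n = 5, exact permutation p = 0.964, the lowest possible being 0.0357). Per 100 barcodes of the endothelial set, WT males had 16.0 ± 3.65 members and THY-Tau22 males 22.8 ± 10.3 (SD, n = 3 each, exact permutation p = 0.40). WT females had 15.8 ± 1.25 (n = 3) and THY-Tau22 females 19.5 ± 9.10 (n = 5, exact permutation p = 0.464). These are shares of captured barcodes, not of cells in the tissue. The endothelial set leaves out barcodes with more than 1 UMI of the rule and smooth muscle genes.

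The mixture of endothelial-poor and endothelial-rich members varied between mice. Endothelial-poor members numbered 6, 5 and 6 in the WT males and 6, 9 and 26 in the THY-Tau22 males, of 21 to 54 members each. In the WT females there were 1, 10 and 7, and in the THY-Tau22 females 13, 6, 25, 3 and 19. THY-Tau22 male replicate 3 stood highest by share, with 26 of its 38 members (68.4%), and WT female replicate 1 lowest, with 1 of 32 (3.13%). The summed level of the 5 endothelial genes was 8635 ± 1351 CPM in WT males and 7617 ± 2235 CPM in THY-Tau22 males (SD, n = 3 each, exact permutation p = 0.60). In females it was 9556 ± 1623 CPM (n = 3) and 7418 ± 969 CPM (n = 5, exact permutation p = 0.0357, the lowest that 5 against 3 allows). After Benjamini-Hochberg adjustment over 18 tests of mouse-level measures this p was 0.60. The summed level was below the lowest WT female in 5 of 5 THY-Tau22 females. The median share of UMIs from mitochondrial genes was counted without the ribosomal RNAs mt-Rnr1 and mt-Rnr2. It was 0.398% ± 0.149 in WT males and 1.08% ± 0.226 in THY-Tau22 males, with no overlap. This gave the lowest p that 3 against 3 allows (exact permutation p = 0.10, adjusted 0.60).

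**Figure D3:**
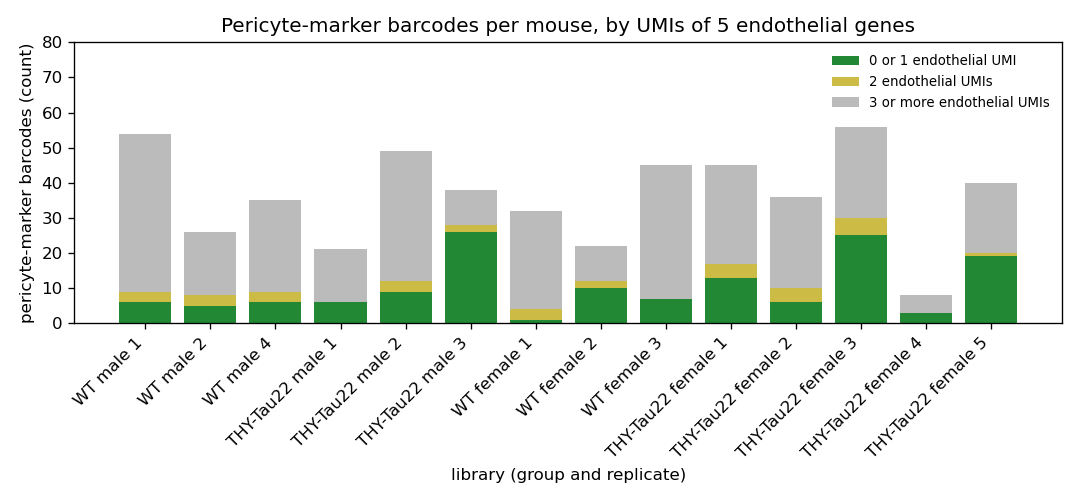
Stacked bars give the number of members in each of the 14 libraries, divided by the number of endothelial UMIs they held. The bars run from 8 members in THY-Tau22 female replicate 4 to 56 in THY-Tau22 female replicate 3, with 26 endothelial-poor members in THY-Tau22 male replicate 3.

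Levels of the rule genes varied between mice of a group. Vtn lay at 710, 933 and 546 CPM in the WT males and at 1694, 704 and 4468 CPM in the THY-Tau22 males. In the WT females it was 1378, 4623 and 624 CPM, and in the THY-Tau22 females 1881, 1278, 2080, 2527 and 1718 CPM. The highest values in males and in females came from THY-Tau22 male replicate 3 and WT female replicate 2. Their members were endothelial-poor in 68.4% and 45.5%. THY-Tau22 female replicate 5, with the highest share among females at 47.5%, had 1718 CPM. Whether the Vtn level goes with this share was not tested. Kcnj8 was 101, 117 and 72.8 CPM in the WT males and 903, 153 and 952 CPM in the THY-Tau22 males, which did not overlap, on 2 to 5 and 5 to 23 UMIs. In females the ranges overlapped, at 85.1 to 1027 CPM in WT and 170 to 1010 CPM in THY-Tau22 mice. Abcc9 was 40.5, 233 and 327 CPM in the WT males, 282, 429 and 745 CPM in the THY-Tau22 males, 204, 428 and 284 CPM in the WT females, and 586, 170, 612, 505 and 788 CPM in the THY-Tau22 females, so the groups overlapped in both sexes. Rgs5 lay between 5291 and 9308 CPM over the 14 mice.

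Differences between genotypes were tested on UMIs summed over the members of each mouse. THY-Tau22 female replicate 4, with 8 members, fell under the minimum of 10 and dropped out of this fit, which used 13 mice and 532 of the 14025 genes detected in the members. In edgeR's quasi-likelihood test a call required a log2 fold change of 0.5 or more in size, with a p below 0.05 after Benjamini-Hochberg adjustment. In males 3 of 532 genes (0.564%) were called, 2 higher and 1 lower in THY-Tau22, and 77 had an unadjusted p under 0.05. Of the 3, DESeq2 called Fth1 alone.

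Fth1 encodes ferritin heavy chain, which stores iron. Its level was 365, 467 and 655 CPM in the WT males and 3048, 949 and 2027 CPM in the THY-Tau22 males. A single barcode held 26 of the 54 UMIs behind the highest value, in THY-Tau22 male replicate 1. The log2 fold change was 1.99 ± 0.45 (SE, edgeR quasi-likelihood test, adjusted p = 0.0284). In females the WT mice lay at 1123, 2140 and 624 CPM and the THY-Tau22 mice in the fit at 771, 639, 918 and 680 CPM, which overlapped (log2 fold change −0.58 ± 0.42, edgeR adjusted p = 0.972). Rps26, a protein of the small ribosomal subunit, lay at 60.8, 175 and 36.4 CPM in the WT males, on 3, 3 and 1 UMIs, and at 565, 337 and 579 CPM in the THY-Tau22 males, on 10 to 14 UMIs. Its log2 fold change was 2.54 ± 0.58 (edgeR adjusted p = 0.0284). Ribosomal protein genes have many processed copies, and how reads shared with them were counted is not given in the sources used here, so this value is uncertain. Ankrd12, an ankyrin repeat cofactor gene, fell from 710, 525 and 582.1 CPM in the WT males to 113, 245 and 82.7 CPM in the THY-Tau22 males (log2 fold change −2.03 ± 0.45, edgeR adjusted p = 0.0284). Its females overlapped, at 561, 342 and 624 CPM in WT and 555, 426, 428 and 573 CPM in THY-Tau22 mice. In the THY-Tau22 males each Ankrd12 value rests on fewer UMIs than the 10 to 14 of Rps26, so the size of its fall is uncertain. Next in order, and not called, were Ubb, a ubiquitin gene (2.21 ± 0.56, edgeR adjusted p = 0.0699), and mt-Co1, a mitochondrially encoded oxidase subunit (1.66 ± 0.45, edgeR adjusted p = 0.109).

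The male calls depended on single libraries. The calls of Fth1, Rps26 and Ankrd12 were all lost when WT male replicate 1, WT male replicate 4, THY-Tau22 male replicate 1, THY-Tau22 male replicate 3 or THY-Tau22 female replicate 1 was left out (0 genes called, or 1 other gene without WT male replicate 4), and all 3 held among the 16 called without THY-Tau22 male replicate 2. With endothelial CPM as a covariate, or with members holding at least 2 rule genes, 0 genes were called, and 5 were called among endothelial-rich members. The same genes were also measured outside the members, with no test. In the other kept barcodes of the same mice, Fth1 was 1961 ± 513 CPM in WT males and 5203 ± 1343 CPM in THY-Tau22 males (SD, n = 3 each), a log2 ratio of means of 1.41, and in the endothelial set the ratio was 1.27. For Rps26 these ratios were 1.37 and 1.53, for Ubb 1.33 and 1.69, and for mt-Co1 0.98 and 1.20. For Ankrd12 the ratios were −0.44 and −0.53, against −2.04 in the members, and the male groups overlapped in both sets. All of these genes were picked by their male p in the same mice, so the ratios are not independent of that choice. Whether any of these differences is particular to the members was not tested.

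**Figure D4:**
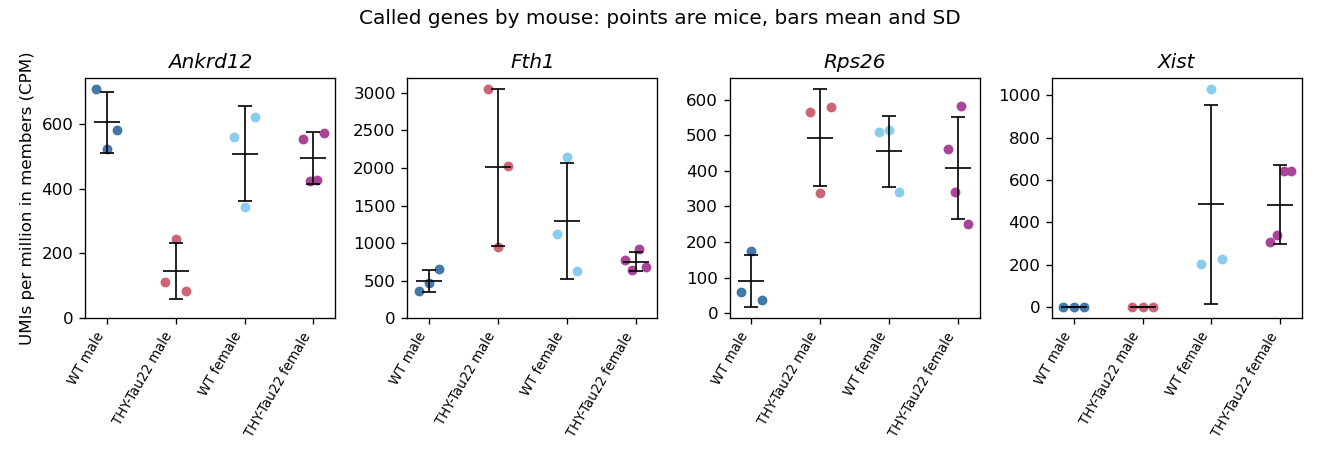
Points are linear CPM of Ankrd12, Fth1, Rps26 and Xist summed over the members of each of the 13 mice in the fit, by group, with bars for the group mean and SD. For the 3 genes called between male genotypes the WT and THY-Tau22 males do not overlap, and the females of both genotypes overlap. These genes were picked by their male p in these mice, so the lack of overlap is not independent of that choice. The interaction called 0 of 532 genes.

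In females 0 of 532 genes (0%) were called by edgeR's quasi-likelihood test, with 26 at an unadjusted p under 0.05, and DESeq2 called 0 (edgeR called 3 without WT female replicate 3). The smallest p belonged to Kif5b, a kinesin motor gene, at 357, 342 and 312 CPM in the WT females and 833, 937, 398 and 788 CPM in the THY-Tau22 females in the fit. These did not overlap, but the log2 fold change of 1.21 ± 0.40 did not pass (edgeR adjusted p = 0.864). Scaf11, a splicing factor gene, was at 1.52, Smc1a, a cohesin subunit, at 1.16, Ly6a, an endothelial surface gene, at −0.94 and Edn1 at −1.31, and none of these 4 passed either. Averaged over the sexes, 0 of 532 genes (0%) were called by edgeR, 42 had an unadjusted p under 0.05 and DESeq2 called 0. The gene of smallest p was Edn1, which encodes endothelin-1, the endothelial peptide that constricts mural cells. It lay at 324, 700 and 910 CPM in the WT males and at 226, 306 and 0 CPM in the THY-Tau22 males, and at 663, 342 and 992 CPM in the WT females and 432, 298, 245 and 107 CPM in the THY-Tau22 females (log2 fold change −1.55 ± 0.39, edgeR adjusted p = 0.252). Edn1 was found in 90 members, 80 of them endothelial-rich. Abcc9 lay at a log2 fold change of 1.22 ± 0.41 (SE) averaged over the sexes. It belongs to the rule, so this value is a description without a test.

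The difference between the male and female genotype effects was tested by an interaction term, which called 0 of 532 genes (0%) in edgeR, with 67 at an unadjusted p under 0.05 and 0 called by DESeq2. Without WT female replicate 3 it called 15, and 8 without that mouse and THY-Tau22 female replicate 5, which share a title prefix. Fth1 had the smallest p, a male minus female log2 difference of 2.57 ± 0.61 (edgeR adjusted p = 0.129). The next were Scaf11 (−2.86), the inducible chaperone Hspa1a (3.04), Rpl39, of the large ribosomal subunit (3.59), and Rps26 (2.53), none of which passed. Between the sexes, averaged over genotypes, 1 of 532 genes (0.188%) was called by edgeR, with 14 at an unadjusted p under 0.05, and 1 by DESeq2. It was Xist, the RNA that silences an X chromosome in female cells. The male members held 0 Xist UMIs of 168509 and the female members 82 of 187039, a level at least 24.6-fold higher in females against a floor of 3 UMIs over the male members. Xist was detected in the members of 7 of 7 female mice in the fit and in 0 of 6 male mice. Clu, which encodes clusterin, a secreted chaperone (−1.44), Rps26 (1.08), Meg3, a long noncoding RNA of neurons (1.64), and Zic1, a transcription factor of the meningeal and mural lineage (0.89), followed and did not pass.

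Lists of genes were summarised by their median log2 fold change, THY-Tau22 over WT, beside a median of −0.02 in males and 0.02 in females over all 532 genes. The 5 rule genes that entered the fit had medians of 1.47 in males and 0.38 in females, given as a description without a test. Of 25 other pericyte genes, 4 were tested and 0 called, with medians of 0.62 and 0.18. Pdgfrb was at 0.82 ± 0.62 in males and 0.04 ± 0.56 in females, Sod3, an extracellular superoxide dismutase, at 1.73 ± 0.86 and 0.32 ± 0.87, and Cald1 at −0.44 ± 0.32 and 0.48 ± 0.30 (SE).

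The genes for work on the capillary gave 0 calls in either sex. Of 22 vessel-tone genes 4 were tested, with medians of 0.44 in males and 0.22 in females, and Gucy1b3 was at 1.01 ± 0.56 and 0.26 ± 0.54. Of 17 contractile genes 10 were tested (medians 0.05 and 0.13). Tpm1 was at −0.38 ± 0.33 and −0.22 ± 0.31 and Actb at 0.39 ± 0.34 and −0.37 ± 0.32. Of 18 matrix genes 5 were tested (medians 0.04 and 0.15). Timp3, an inhibitor of matrix proteases, was at −1.01 ± 0.37 in males, where it did not pass (edgeR adjusted p = 0.197), and at 0.15 ± 0.35 in females. Of 17 genes of PDGF, Notch and TGF-beta signalling 6 were tested (medians 0.26 and −0.15), with Hes1, a target of Notch, at 0.25 ± 0.44 and 0.70 ± 0.43. For transporters and pumps 2 of 17 were tested (medians 0.25 and 0.51). For hypoxia and glycolysis 2 of 14 were tested (medians −0.29 and 0.04), Epas1 and Slc2a1.

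Immune and stress lists had 0 calls too. For chemokine and immune genes 6 of 21 were tested (medians 0.75 in males and −0.37 in females). B2m, the light chain of MHC class I, was at 0.81 ± 0.41 and −0.77 ± 0.38, and the chemokine Cxcl12 at −0.27 ± 0.32 and −0.60 ± 0.30. Of 12 interferon-stimulated genes 1 was tested, Ifitm3 (0.60 and −0.44). Of 17 immediate early genes 15 were tested, and 12 estimates lay above 0 in males (median 0.59) and 7 in females (median −0.02). Jun, at 0.59 ± 0.35 and −0.14 ± 0.33, and Fos, at 0.30 ± 0.34 and −0.07 ± 0.32, were the most abundant. Of 13 chaperones 7 were tested (medians −0.16 and −0.20), with Hspa5, the chaperone of the endoplasmic reticulum, at −0.41 ± 0.32 and 0.60 ± 0.32.

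Of 25 ribosomal protein genes tested among 88, 1 was called in males (Rps26) and 0 in females. Estimates lay above 0 for 20 in males (median 0.52) and 7 in females (median −0.38). The interaction estimate lay above 0 for 25 of 25 (median 0.81), against 269 of all 532 genes, with 0 called. The 6 mitochondrially encoded mRNAs tested lay above 0 in males, with a median of 1.10, and 2 of 6 did in females, with a median of −0.09. mt-Cytb was at 1.29 ± 0.44 in males (edgeR adjusted p = 0.179). Of 15 amyloid and lipid handling genes 5 were tested and 0 called (medians 1.41 and −0.35). Apoe, the main lipid carrier of brain, was at 446, 350 and 327 CPM in the WT males and 847, 367 and 2524 CPM in the THY-Tau22 males (log2 fold change 1.70 ± 0.60, edgeR adjusted p = 0.186). Of the 61 UMIs behind the highest value, in THY-Tau22 male replicate 3, 29 sat in 1 barcode. Cst3, a cysteine protease inhibitor, was at 1.41 ± 0.51 (edgeR adjusted p = 0.186). The study's main table held 10 genes, picked there on these samples and so not independent, of which 7 were tested and 1, Fth1, was called in males and 0 in females.

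Markers of other cells moved beside these values. The 8 oligodendrocyte genes summed to 1054 to 2547 CPM in the members of WT males and 1347 to 12081 CPM in those of THY-Tau22 males. In females the sums were 454 to 6249 CPM in WT and 511 to 4260 CPM in THY-Tau22 mice. The 8 astrocyte genes, with Gfap at 0, summed to 993 to 1273 CPM and 1010 to 3310 CPM in WT and THY-Tau22 males, and the 9 microglial genes, all detected, to 72.8 to 162 and 91.8 to 1820 CPM. The 8 endothelial genes had medians of −0.08 in males and −0.46 in females, where 8 of 8 estimates lay below 0. Their part in the results above was not tested. Mapt, the mouse tau gene, had 14 UMIs in the members and Thy1 had 3, too few to be tested.

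**Figure D5:**
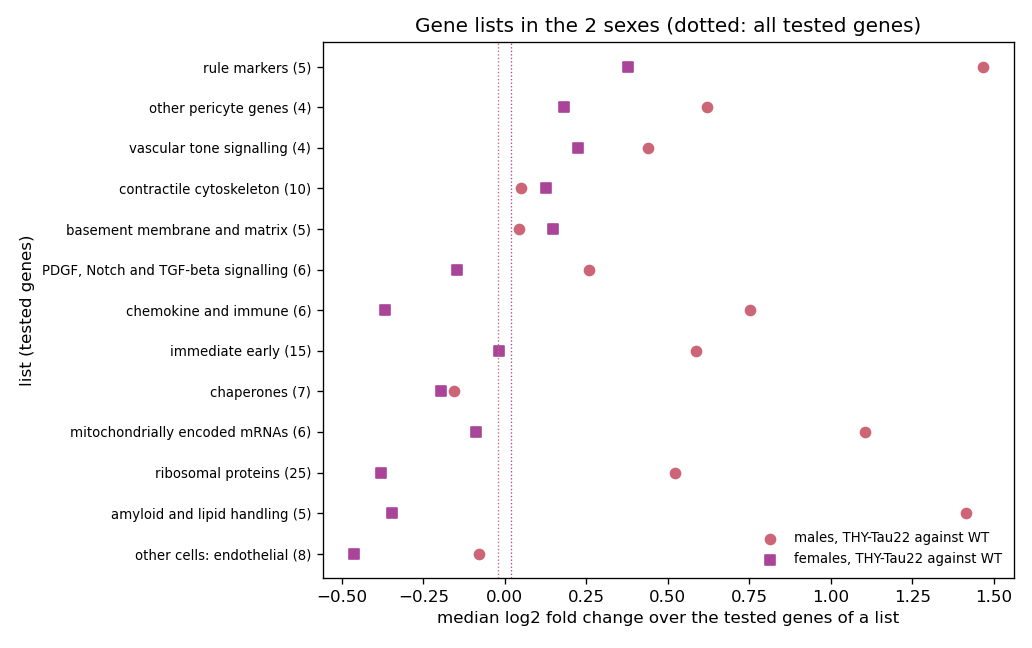
The median log2 fold change (THY-Tau22 over WT) of the tested genes of each list is plotted for males and females, with the median over all 532 genes as a line for each sex. Mitochondrially encoded mRNAs stand at 1.10 in males and −0.09 in females, and contractile genes at 0.05 and 0.13.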

How the data were processed

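Cortex of a hemisphere was dissociated with an enzyme kit and run by Drop-seq, 1 library per mouse. The authors processed the reads with the Drop-seq pipeline, whose version is not given in the sources used here, and mm10 is named in the submitters' processing notes. The deposited values were raw UMI counts per gene and barcode, 3000 barcodes a table, with no normalization. The 14 tables used held 1056234 to 2237505 UMIs, and the members 3957 to 49328 UMIs per mouse, which limits the tests to abundant genes; intervals and floors cover counting error only.

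Members were found by the rule stated above and summed per mouse, since cells are not replicates. No doublet caller was run. No mitochondrial limit was set, and 0 members exceeded 5% when mt-Rnr1 and mt-Rnr2 were not counted. Comparison sets were chosen by rules of the same kind (endothelial, smooth muscle, microglia). Sums were tested in edgeR 4.0.16 (R 4.3.3; TMM, filterByExpr, quasi-likelihood, 1 mean per group, Benjamini-Hochberg over 532 genes), with DESeq2 1.42.0 as an alternative. Values with 1 number per mouse went into exact permutation tests, two-sided (scipy 1.17.1). The p-values measure the spread between these mice. The scripts were tested on simulated data. The design named 14 mice for the fit, and THY-Tau22 female replicate 4 had too few members for it.

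The members and gene lists were chosen with earlier results of these data known. Named genes were the 6 rule genes, the called genes of each contrast with those of smallest p up to 5, up to 4 tested genes of highest mean level per list, and others needed to describe the members' identity, which were chosen after their values were seen. Leading genes were ranked by log2 of CPM plus a pseudocount of 20, with at least 20 UMIs in the members. Alternatives covered the filter, the scaling, the rule's thresholds, depth, single libraries, and 5 chosen after seeing the data: 0 to 1 endothelial UMIs, at least 3, at least 2 rule genes, at least 5 members per mouse, and endothelial CPM as a covariate. Gene positions came from GENCODE M21 models and promoters from RefSeq GRCm38.p6. Results for some genes are not reported here.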

Additional observations from a re-analysis of the deposited data

How the results depend on the processing

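No paired analysis was possible because a replicate number here only follows the order of the accessions. In males the called genes numbered 0 with all 16 libraries as labelled, with the library deposited under both genotypes kept as THY-Tau22 male replicate 4, with at least 5 rule UMIs, with no UMI of the 9 genes, with 0 to 1 endothelial UMIs (25 genes tested), with at least 2 rule genes or with endothelial CPM as a covariate. They numbered 1 with DESeq2, with at least 2 rule UMIs or with no smooth muscle UMI, and 5 with at least 500 detected genes (none of the 3 reported among them), without the 2 libraries titled MB22 (THY-Tau22 female replicate 5 and WT female replicate 3) or with at least 3 endothelial UMIs (all 3 among them in both). With no filter on low counts 4 other genes were called and 0 of the 3. Leaving out single mice gave 0 to 16: 0 without WT male 1, THY-Tau22 male 1 or 3 or THY-Tau22 female 1, 1 other gene without WT male 4, 5 without WT female 3 and 16 without THY-Tau22 male 2. In females 2 genes were called without the MB22 libraries, and leaving out single mice gave 0 to 3 (3 without WT female 3). Averaged over sexes, 0 were called under each of the 34 alternatives. The interaction gave 1 with total UMIs only, with no filter on low counts or with at least 2 rule UMIs, and 8 without the MB22 libraries, with 0 to 15 when leaving out single mice (15 without WT female 3, 1 without THY-Tau22 male 2). Between sexes there were 3 without the filter, 2 with at least 500 detected genes, and 0 with at least 5 rule UMIs, no UMI of the 9 genes, 0 to 1 endothelial UMIs or at least 2 rule genes, and 0 to 1 when leaving out single mice (0 without THY-Tau22 female 3 or 5).

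The share difference, THY-Tau22 minus WT, was 0.157 percentage points in males and turned to −1.72 with at least 500 detected genes and −0.362 with at least 3 endothelial UMIs, ranging from −0.126 to 0.595 when leaving out single mice. In females it was −0.0307 and turned to 0.179 with at least 5 rule UMIs, 0.274 with no UMI of the 9 genes, 0.266 with 0 to 1 endothelial UMIs, 0.258 with at least 2 rule genes and 0.365 after thinning to 500 UMIs, ranging from −0.216 to 0.335. Per 100 endothelial barcodes the male difference of 6.74 turned to −1.48 with at least 500 detected genes and −0.358 with at least 3 endothelial UMIs (2.42 to 12.4 when leaving out single mice), and the female difference of 3.69 to −0.151 with at least 3 endothelial UMIs (1.26 to 7.08). None of these differences passed its exact permutation test. In females with a mouse left out, no difference of any size could have passed with so few mice. The same held in males, except with all 16 libraries as labelled. The Fth1 log2 fold change in females turned from −0.58 to 0.46 with at least 500 detected genes, and that of Meg3 between sexes from 1.64 to −0.15 without the MB22 libraries and to between −0.19 (without WT female 3) and 2.32 when leaving out single mice. The male changes of Ankrd12, Fth1 and Rps26 kept their sign under 32, 34 and 30 alternatives and were called under 15, 19 and 16, with edgeR or DESeq2 adjusted p from 0.0122 to 0.302, 0.00208 to 0.756 and 0.0122 to 0.398. The causes were not tested.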

Other observations

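The tables of the library deposited under both genotypes, labelled WT and THY-Tau22 male, which entered no comparison, had 37 and 38 members (1.95% and 1.85% of kept barcodes). Of these, 19 and 21 were endothelial-poor. Their Vtn levels were 1369 and 1181 CPM, and their Kcnj8 levels 257 and 448 CPM.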
